A study of Homo sapiens with 16 samples.

Results

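The stem cell surface markers described here are 7 genes whose proteins are used to stain, sort or grade human pluripotent cells: THY1, PODXL, CD24, CD9, EPCAM, ALPL and PROM1. They were chosen by name, with earlier results of these data known. Every probe set of the deposited table that lists the symbol was taken, keeping the brightest where a gene had several. Each of the 7 had exactly 1 probe set, which carried that symbol alone, so all 7 were measured, out of 14271 genes named by the 14577 probe sets with 1 symbol; the table holds 18495 probe sets in all. The transcript was measured, not the protein at the cell surface.

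The proteins differ in how they sit in the membrane. THY1 (CD90), CD24 and ALPL, the tissue-nonspecific alkaline phosphatase, are held by a glycosylphosphatidylinositol (GPI) lipid anchor, whereas CD9 and PROM1 (prominin, CD133) cross the membrane several times and PODXL (podocalyxin) and EPCAM cross it once. PODXL is a sialylated mucin that carries the TRA-1 epitopes of pluripotent cells, alkaline phosphatase activity is a classical histochemical stain for their colonies, and the glycolipids SSEA-3 and SSEA-4 complete the usual antibody panel. Several of these proteins are also made by differentiated cells: EPCAM in simple epithelia, THY1 in fibroblasts and neurons, PROM1 in epithelial and neural progenitors, and PODXL in kidney podocytes and endothelium.

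The cells were H9, an established human embryonic stem cell line, at passage 40-50 in all groups, and RNA was hybridised to Human Exon 1.0 ST arrays. The day 0 group held 4 biological samples of undifferentiated cells, kept on mouse embryonic fibroblast feeders or on Matrigel in medium conditioned by such fibroblasts, with 20% knockout serum replacement and basic FGF at 8 ng/ml. The other groups held 3 samples after 1 day, 3 after 3 days and 4 after 5 days in RPMI with activin A at 100 ng/ml, with fetal bovine serum raised from 0% to 0.2% and then 2%. Replicate 4 of day 0 and of day 5 was run on a pair of technical arrays, which were averaged, leaving 14 samples from 16 arrays. No sample received the new medium without activin, so activin, medium, serum and time cannot be told apart, and all samples come from 1 line. The labels call the replicates biological and do not say how they were separated. In such bulk samples fewer cells with a transcript and less of it per cell cannot be told apart.

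Values are linear array intensities, and differences were tested on log2(intensity + 1) with limma across all 18495 probe sets with Benjamini-Hochberg adjustment at a threshold of 0.05. The array medians lay between 245.1 and 246.3. The library labelled day 3 replicate 2 and the library labelled day 5 replicate 2 had median correlations with the rest of their groups of at most 0.858, against 0.901 to 0.962 for the other samples. The summed intensity of 13 endoderm markers was 4061 to 8622 at day 0, 14112 to 37326 at day 1, 5132 to 54478 at day 3 and 48749 to 67488 at day 5, and the 5132 was day 3 replicate 2, inside the day 0 range. CER1 was the brightest of the 13, with a median of 3158.2 at day 0 and 24174.0 at day 5, so it weighs heavily in these sums. The summed intensity of 9 pluripotent cell markers was 43052 to 56461 at day 0, 44127 to 49486 at day 1, 27830 to 33866 at day 3 and 21724 to 35715 at day 5. POU5F1, NANOG and SOX2 share their probe sets with other symbols and are not in that sum. Of the 9 pluripotent cell markers 1 had a log2 difference above 0 at day 5, GDF3, which rose by 2.08 (limma adjusted p 0.00441). Differences of the members from day 0 at day 3 are given with and without its replicate 2, for PROM1 and EPCAM as mean levels.

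At day 5 the transcripts of THY1, CD24 and PROM1 fell against day 0, those of PODXL, CD9 and ALPL did not pass the test, and EPCAM lay higher in every sample without passing it. The 3 members past the test (adjusted p under the threshold) compare with 5.46% of all probe sets called at day 5, made up of 2.89% called lower and 2.56% called higher, and 0 members were called higher. Because the members were chosen with earlier results known, such shares are given for scale and test nothing. The members were also bright, with 82.8% (PROM1) to 99.3% (CD24) of probe sets below them at day 0. With the dimmest 25% left out, 1126 of 13871 probe sets were called at day 5, 634 of them lower. The same 3 genes passed the moderated F test for a difference from day 0 at any time (adjusted p of 0.00238 for THY1, 0.0405 for CD24 and 0.0337 for PROM1), which 3.73% of probe sets passed. With any 1 sample left out THY1 still passed that F test, while 1 to 3 of the members did in all. At day 1 and at day 3 limma called 0 members, where it called 0.00541% and 0.027% of all probe sets. At an unadjusted p below the same threshold were 1 member at day 1, against 6.03% of all probe sets, and 2 at day 3, against 8.56%. Without day 3 replicate 2, THY1 and CD24 passed at day 3, where 3.19% of probe sets did, and the same 3 members passed at day 5, where 8.73% did.

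**Figure D1:**
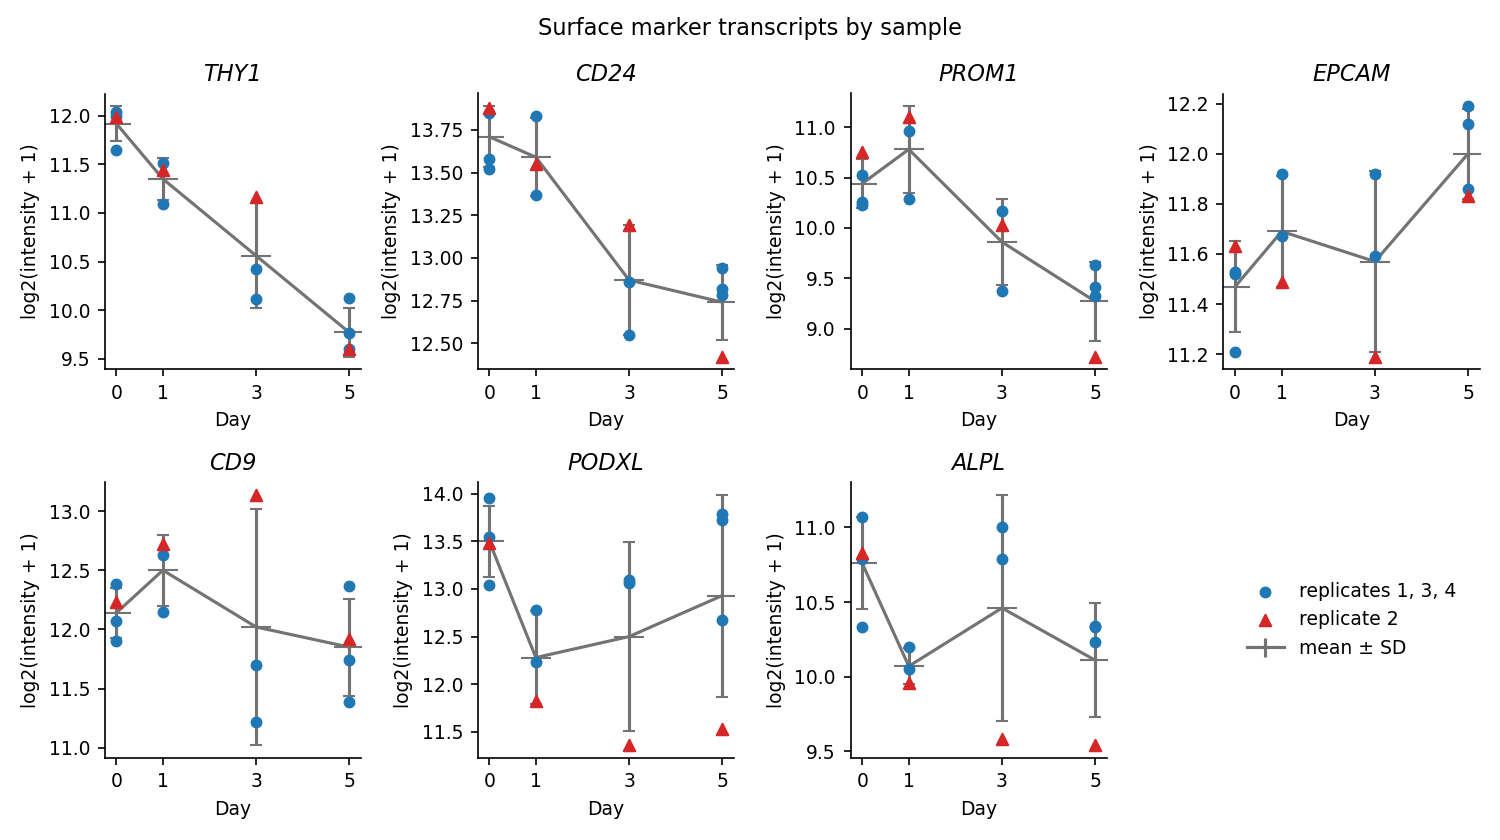
Level of each of the 7 transcripts, as log2(intensity + 1), against days with activin, in 14 biological samples. Circles are replicates 1, 3 and 4, red triangles are replicate 2, and the grey line joins group means with SD bars (n = 4, 3, 3 and 4). THY1 steps down at each time, while PODXL and ALPL scatter widely at days 3 and 5 with replicate 2 lowest.

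THY1, a small GPI-anchored protein of the immunoglobulin superfamily, had the largest change of the 7. Its intensity was 3216, 4077, 4223 and 4102 in day 0 replicates 1 to 4, and 2915, 2772 and 2179 in the day 1 samples. It was 1371, 2291 and 1104 at day 3 and 773, 776, 865 and 1117 at day 5. All day 1, day 3 and day 5 samples lay below all day 0 samples, and day 3 replicate 2 stood well above the other day 3 samples, among the day 1 values. The mean log2 level was 11.92 ± 0.18 (SD, n = 4) at day 0, 11.35 ± 0.22 (n = 3) at day 1, 10.56 ± 0.54 (n = 3) at day 3 and 9.77 ± 0.25 (n = 4) at day 5. The difference from day 0 was -0.58 ± 0.27 (SE) at day 1 (limma adjusted p 0.835) and -1.36 ± 0.27 at day 3 (0.159), and at day 5 THY1 fell by 2.15 ± 0.25 (0.000653), which is 4.44-fold. By its p-value THY1 ranked 27th of the 18495 probe sets at day 5, and 0.49% of probe sets had a more negative change. Groups that do not overlap in the downward direction were found for 6.62% of probe sets at day 1, 6.55% at day 3 and 8.57% at day 5.

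The order of THY1 levels was day 0, day 1, day 3, day 5 from high to low, but no step between neighbouring times passed the test with all samples (adjusted p 0.835, 0.398 and 0.519). Day 3 against day 1 and day 5 against day 3 gave 0 called members, where 0.0324% and 0.0973% of all probe sets were called. Without day 3 replicate 2, THY1 fell by 1.66 at day 3 against day 0 (0.00271) and by 1.08 at day 3 against day 1 (0.0449), a comparison in which 2.73% of probe sets then passed. The difference at day 5 against day 3 was then -0.5 (limma adjusted p 0.486). The day 5 call held without any 1 of the 8 samples compared, with changes of -2.27 to -2.09 and adjusted p values of 0.00129 to 0.00335.

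THY1 is also a marker of fibroblasts, and the day 0 cells had contact with fibroblast feeders or their medium, though those feeders are mouse cells. The summed intensity of 13 fibroblast and mesenchymal markers was 2812 to 7275 at day 0, 1383 to 2637 at day 1, 1744 to 3568 at day 3 and 2495 to 7534 at day 5. None of the 13 was at 0 in any sample, and at day 5 only LUM, a matrix proteoglycan, passed the test, where it rose by 4.57 ± 0.71 (adjusted p 0.00241). The median intensity of LUM was only 12.2 at day 0 and 366.0 at day 5, and with a pseudocount of 16 the rise was 3.7. The marker sum lay wholly below day 0 at day 1 and overlapped day 0 at days 3 and 5. Single markers went both ways at day 5. The median intensity of COL1A1 was 1600.7 at day 0 and 568.0 at day 5, while 7 of the 13 had a log2 difference above 0. The part of such cells in the THY1 values was not tested.

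CD24, a heavily glycosylated GPI-anchored sialoprotein with a very short peptide, was near its day 0 level at day 1 and lower from day 3 on. Its intensity was 14749, 15035, 12212 and 11764 at day 0 and 14607, 12001 and 10619 at day 1. It was 6007, 9312 and 7453 at day 3 and 7229, 5466, 7839 and 7026 at day 5. The day 0 and day 1 samples overlapped, and all day 3 and day 5 samples lay below all day 0 and day 1 samples, with day 3 replicate 2 the highest of them. The day 3 samples lay wholly below the day 1 samples for 7.53% of all probe sets. CD24 differed from day 0 by -0.12 ± 0.23 at day 1 (adjusted p 1) and by -0.84 ± 0.23 at day 3 (0.232; fell by 1.0 with an adjusted p of 0.0406 without day 3 replicate 2). At day 5 it fell by 0.97 ± 0.21 (0.0187), which is 1.96-fold. That call was lost without day 0 replicate 1 (0.0688) or day 0 replicate 2 (0.0668). CD24 has processed pseudogenes of near-identical sequence, so how much of its signal they could supply is uncertain.

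PROM1, a cholesterol-binding protein of membrane protrusions, first lay slightly above day 0 and then below it. Its intensity was 1474, 1718, 1202 and 1228 at day 0 and 1995, 2192 and 1249 at day 1. It was 1150, 1045 and 660 at day 3 and 790, 420, 679 and 640 at day 5. Day 1 overlapped day 0, and all day 3 and day 5 samples lay below all day 0 samples. Without replicate 2 the mean log2 level at day 3 was 9.77, against 9.86 with it and 10.44 at day 0. The difference from day 0 was 0.34 ± 0.30 at day 1 (adjusted p 1) and -0.59 ± 0.30 at day 3 (0.649), and at day 5 PROM1 fell by 1.17 ± 0.28 (0.0259), which is 2.25-fold. This call was the least secure of the 3. It was lost when day 0 replicate 1 (0.081), 2 (0.0908) or 4 (0.0519) was dropped, and when day 5 replicate 2 (0.0659), 3 (0.0505) or 4 (0.0516) was, where PROM1 differed by -1.23 to -0.99. The order of levels was day 1, day 0, day 3, day 5, and none of the neighbouring differences passed the test, the last with an adjusted p of 0.907.

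CD24 and PROM1 were called lower at day 5 and, unlike THY1, had promoter windows at hand, so the stretches just before their starts are shown. Shared control of these genes was not tested. RefSeq promoter windows on GRCh38.p14 were at hand for 4 of the 7 members, CD24, CD9, ALPL and PROM1, in 14 windows because each has several annotated starts. The 250 bases before the 5′-most start are printed 5′ to 3′ on the strand of the gene, which is the minus strand for both: chr6:106975628-106975877 for CD24 and chr4:16084024-16084273 for PROM1. Capitals mark each GC box (GGGCGG or its reverse complement CCGCCC) and each CCAAT box (CCAAT or ATTGG), searched on both strands.
CD24: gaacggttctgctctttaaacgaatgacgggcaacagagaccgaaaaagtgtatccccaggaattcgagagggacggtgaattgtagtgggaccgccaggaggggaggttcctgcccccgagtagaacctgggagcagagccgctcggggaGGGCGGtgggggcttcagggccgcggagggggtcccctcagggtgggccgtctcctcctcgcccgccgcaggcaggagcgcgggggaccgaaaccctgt
PROM1: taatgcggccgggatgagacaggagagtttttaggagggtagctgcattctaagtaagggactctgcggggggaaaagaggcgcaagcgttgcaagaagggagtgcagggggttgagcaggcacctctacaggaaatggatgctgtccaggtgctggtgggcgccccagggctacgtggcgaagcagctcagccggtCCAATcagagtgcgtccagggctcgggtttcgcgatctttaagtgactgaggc
The CD24 window held 1 GC box and 0 CCAAT boxes, and the PROM1 window 0 and 1. Windows at other annotated starts differ: of the other 2 CD24 windows 1 holds 1 GC box and 1 CCAAT box, and of the other 3 PROM1 windows 1 holds 1 GC box, with 0 CCAAT boxes in any of the 3. Among all 35116 windows of this length in the table, 42.6% hold a GC box and 32.0% a CCAAT box. None of the 14 member windows held the octamer ATTTGCAT or its reverse complement ATGCAAAT, which 1.63% of all windows hold, and 1 ALPL window held TATAAA, which 10.7% hold with its reverse complement TTTATA counted. The G and C content was 65.6% in the CD24 window and 58.8% in that of PROM1. These are matches of letters in short windows, and the arrays do not show which start was used.

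EPCAM, a homophilic adhesion protein of epithelia, was the member that lay higher at day 5. Its intensity was 2955, 3171, 2367 and 2937 at day 0, 3251, 2884 and 3883 at day 1, and 3877, 2338 and 3078 at day 3. At day 5 it was 4665, 3647, 4439 and 3714, all 4 above all 4 day 0 samples, which 6.07% of probe sets showed in that direction. The difference was 0.53 ± 0.21 (95% interval 0.06 to 0.99, adjusted p 0.216), a ratio of 1.44. EPCAM differed by 0.22 ± 0.23 at day 1 (adjusted p 1) and by 0.09 ± 0.23 at day 3 (0.95), and its groups overlapped day 0 at both times. In every activin group replicate 2 was its lowest sample. Without replicate 2 the mean log2 level of EPCAM at day 3 was 11.75, against 11.57 with it and 11.47 at day 0.

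CD9, a tetraspanin that organises integrins and other membrane proteins, showed no change past the test at any time. Its intensity was 4307, 4788, 5326 and 3812 at day 0, 4553, 6742 and 6344 at day 1, 3315, 9055 and 2390 at day 3, and 5281, 3879, 2685 and 3414 at day 5. Day 3 replicate 2 held the highest CD9 value of all 14 samples, 3.22-fold above the mean of the other day 3 samples, which were among the lowest. The difference from day 0 was 0.36 ± 0.39 at day 1 (adjusted p 1), -0.12 ± 0.39 at day 3 (0.963) and -0.29 ± 0.36 at day 5 (95% interval -1.08 to 0.50, adjusted p 0.766). Without day 3 replicate 2 the day 3 difference was -0.68 (0.313).

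**Figure D2:**
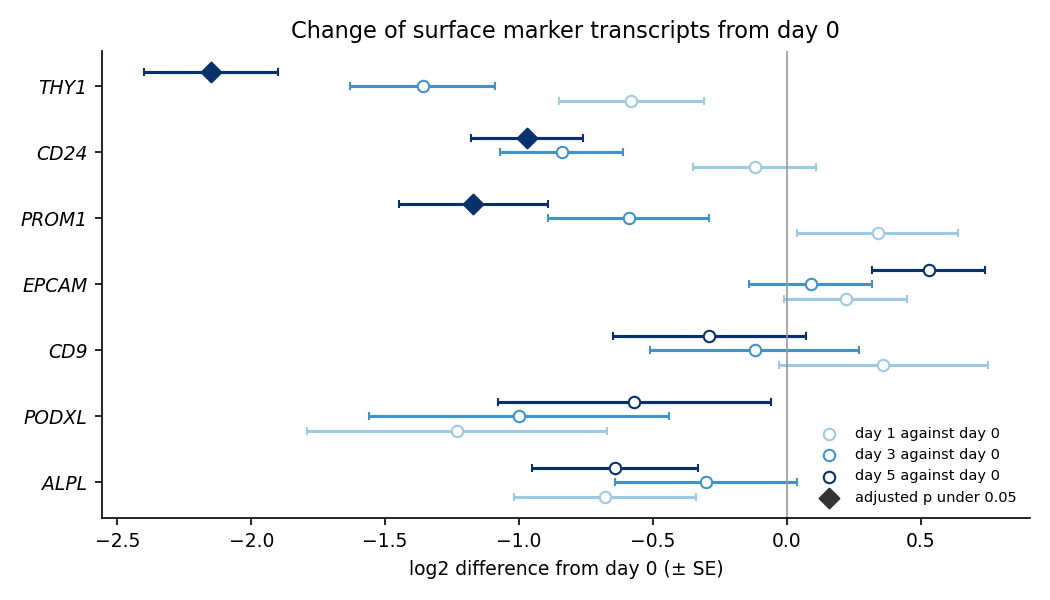
Difference of each transcript from day 0 on the log2 scale (horizontal axis), with SE bars from limma, at day 1 (light), day 3 (middle) and day 5 (dark); filled diamonds passed the test and open circles did not. Filled diamonds stand at day 5 for THY1 (-2.15), CD24 (-0.97) and PROM1 (-1.17), and the SE bars are widest for PODXL.

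PODXL, the TRA-1 carrier, was lower than day 0 in all day 1 samples and then spread over a wide range. Its intensity was 11914, 11444, 8414 and 15803 at day 0 and 7055, 3608 and 4793 at day 1. It was 8531, 2630 and 8732 at day 3 and 6505, 2963, 13489 and 14181 at day 5. The samples overlapped day 0 at days 3 and 5, where day 5 replicates 3 and 4 were among the highest samples of the series and replicate 2 was among the lowest. The difference was -1.23 ± 0.56 at day 1 (95% interval -2.43 to -0.03, adjusted p 0.811), -1.0 ± 0.56 at day 3 (0.687) and -0.57 ± 0.51 at day 5 (-1.69 to 0.54, adjusted p 0.655). At day 5 the SD was 1.06 (n = 4), against 0.37 (n = 4) at day 0. Without replicate 2 of the day in question PODXL differed by -0.43 at day 3 (0.856) and -0.11 at day 5 (0.972).

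ALPL, which hydrolyses phosphate esters outside the cell, was also lower than day 0 in all day 1 samples. Its intensity was 1775, 1825, 1286 and 2142 at day 0 and 1179, 994 and 1060 at day 1. It was 2048, 766 and 1768 at day 3 and 1199, 745, 1289 and 1296 at day 5. Day 3 replicates 1 and 3 were back within the day 0 range and replicate 2 was not. ALPL differed from day 0 by -0.68 ± 0.34 at day 1 (95% interval -1.42 to 0.05, adjusted p 0.884), -0.30 ± 0.34 at day 3 (0.889; 0.14, 0.931, without replicate 2) and -0.64 ± 0.31 at day 5 (-1.32 to 0.03, adjusted p 0.328). With THY1, 3 of the 7 members had all day 1 samples below all day 0 samples, against 6.62% of all probe sets.

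Replicate 2 of the activin groups was the low sample for PODXL and ALPL. Relative to the mean of the other samples of the same day, PODXL in replicate 2 was 1.61-fold lower at day 1, 3.28-fold lower at day 3 and 3.63-fold lower at day 5. ALPL in replicate 2 was 1.12-fold, 2.48-fold and 1.69-fold lower at those times. For both genes and for EPCAM replicate 2 was the lowest sample of its day at days 1, 3 and 5. CD9 in replicate 2 was the highest of its day at days 1 and 3 and lay between the others at day 5. After subtracting each day's mean, PODXL and ALPL correlated at r = 0.89 over the 14 samples and PODXL and CD9 at r = -0.75, given as a description because the 4 day groups share their centring. With replicate 2 of days 1, 3 and 5 left out, these values were 0.68 and -0.87 over 11 samples. These are 2 of 21 pairs, and others depended more on those samples. Without them EPCAM and ALPL went from 0.77 to 0.50, CD9 and ALPL from -0.76 to -0.41, and PODXL and EPCAM from 0.54 to -0.15. For the same replicate 2 libraries the endoderm marker sum was 14112, 5132 and 48749, the lowest of each day. Low sums were not particular to that list. Their neural marker sum was 4542, 6054 and 4800, also the lowest of each day. Their pluripotent cell marker sum was 44127, 33866 and 21724, the lowest at days 1 and 5 and the highest at day 3. Their trophoblast and amnion marker sum was 952, 1289 and 868, the highest at days 1 and 3 and the lowest at day 5. The part of such differences in the PODXL and ALPL values was not tested.

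**Figure D3:**
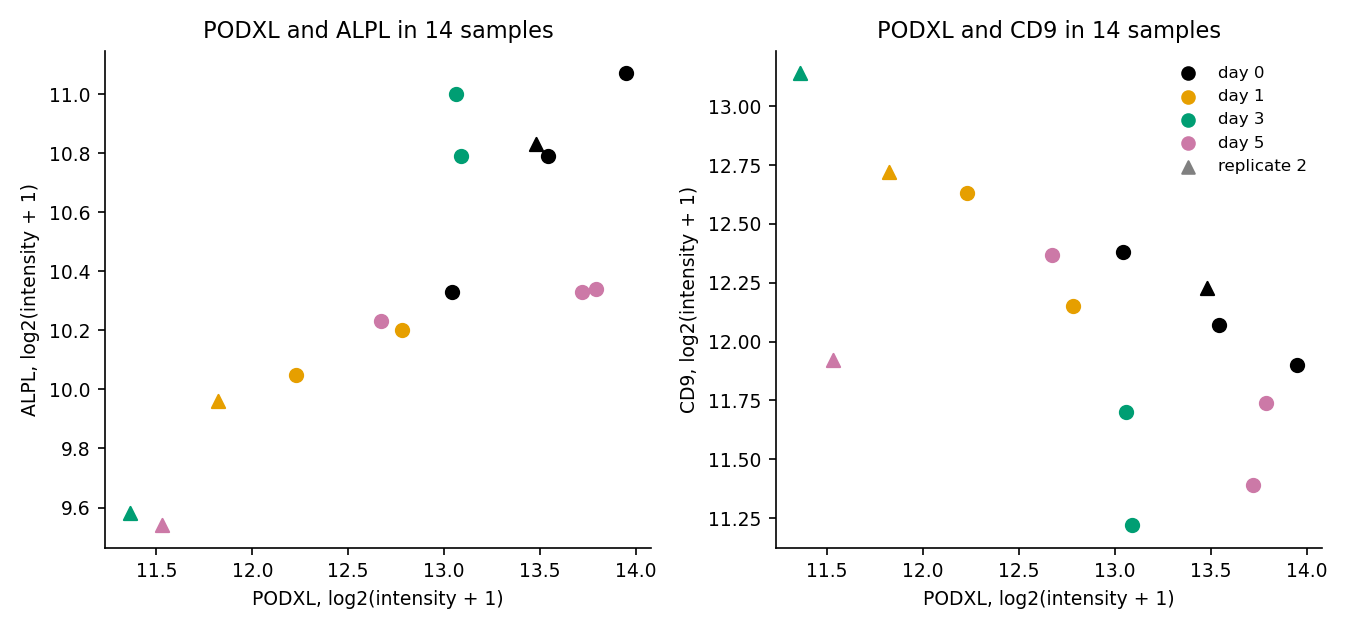
Levels, as log2(intensity + 1), of ALPL (left) and CD9 (right) against PODXL in the 14 biological samples; colours are days and triangles are replicate 2. ALPL and PODXL are both highest in day 0 replicate 4 and are low together in the activin replicate 2 samples. The highest CD9 value, 13.14, belongs to the sample with the lowest PODXL value, 11.36.

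The members were also compared with each other, as the difference between 2 transcripts within each sample at day 5 against day 0. THY1 changed by 2.68 more than EPCAM toward lower values, by 1.18 more than CD24, by 0.98 more than PROM1, by 1.86 more than CD9 and by 1.51 more than ALPL. In these 5 pairs, and in the pairs of EPCAM with CD24 (1.49), CD9 (0.82), ALPL (1.17) and PROM1 (1.70), the day 5 and day 0 samples did not overlap (n = 4 and 4, exact two-sided permutation p = 0.0286 each, the smallest that 4 against 4 allows). Adjusted over the 21 pairs that p becomes 0.0667, so 0 pairs passed. For CD24 against PROM1 the changes differed by 0.21, with SDs of 0.21 at day 5 and 0.10 at day 0 (exact permutation p = 0.143, adjusted 0.188). For PODXL against ALPL the changes differed by 0.07, with SDs of 0.72 and 0.10 (exact permutation p = 0.914, adjusted 0.914).

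Probe sets with 1 symbol were ranked by their Pearson correlation with each member over the 14 samples, and the 3 highest are named, as a description of likeness in these samples. For THY1 they were GALNT14, which starts mucin-type O-glycans (r = 0.969), the integrin adaptor FERMT1 (0.965) and the zinc finger gene ZNF589 (0.963). For CD24 they were MAD2L2 (0.969), the cap methylase TGS1 (0.956) and CDCA7L (0.954), and for PROM1 the ciliary transport gene WDR35 (0.950), LRPPRC, which stabilises mitochondrial mRNA (0.948), and the acetyltransferase subunit NAA15 (0.943). For PODXL they were the methionyl-tRNA synthetase MARS1 (0.957), SHISA5 (0.943) and the survival gene BCL2L1 (0.935), and for ALPL the collagen hydroxylation cofactor CRTAP (0.959), AHCYL1 (0.949) and RGSL1 (0.940). For CD9 they were the mitochondrial import factor GRPEL1 (0.948), RRP8 (0.924) and SYCE1 (0.909). EPCAM had the lowest top values, with LRRC2 (0.885), the streak homeobox gene EVX1 (0.855) and LRIT3 (0.854). Without day 3 replicate 2 the 21 correlations were 0.81 to 0.976.

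Relatives, partners, anchor and glycan enzymes of the members were taken from lists. These lists and those further below were chosen with earlier results of these data known. For scale, 2.56% of all probe sets were called higher and 2.89% lower at day 5, where the median over all probe sets was -0.02. Of 28 relatives 24 were measured, with 2 higher and 2 lower at day 5 and a median of -0.09. Among the CD9 relatives, TSPAN12, a partner of frizzled receptors, rose by 1.43 ± 0.28 (adjusted p 0.0095), CD63, a lysosomal tetraspanin, rose by 0.79 ± 0.20 (0.0382), and CD82, a metastasis suppressor, fell by 0.81 ± 0.22 (0.0457). PODXL2, a sialomucin relative of PODXL, fell by 1.10 ± 0.25 (0.0208). CD63 was named after its value was seen, as the remaining gene of the 4. Of these calls only that of TSPAN12 held without any 1 of the 8 samples (0.00961 to 0.0389). CD82 lost its call without each of the 8 (0.0579 to 0.128), CD63 without each but day 0 replicate 3 (0.0525 to 0.129), and PODXL2 without day 0 replicates 1 (0.0796) or 2 (0.0557) or day 5 replicate 1 (0.0683). In a fit of day 0 and day 5 alone PODXL2 (0.0579), CD63 (0.0963) and CD82 (0.0545) lost their calls. CD82 also lost its call with all 16 arrays and the sample as a random block (0.0513), technical array 2 alone (0.0541), a variance trend (0.0703) and a pseudocount of 16 (0.0595).

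Of 23 partners and processing enzymes 19 were measured, with 1 higher and 0 lower and a median of -0.17. The 1 was RDX (radixin), which links membrane proteins to actin and rose by 1.02 ± 0.23 (adjusted p 0.0203); the call was lost when day 0 replicate 1, 3 or 4 or day 5 replicate 1 or 3 was dropped (0.051 to 0.0692), with all 16 arrays and the sample as a random block (0.129) and with technical array 1 alone (0.0521). Of 28 genes that make or attach the GPI anchor, which THY1, CD24 and ALPL share, 25 were measured, with 0 higher, 1 lower and a median of -0.03. The 1 was PGAP2, which remodels the anchor's lipid and fell by 1.06 ± 0.28 (0.0457), a call lost without each day 0 sample and day 5 replicates 1 or 2 (0.077 to 0.142), with the random block (0.0652), with technical array 1 alone (0.0782) and in a fit of day 0 and day 5 alone (0.0764). Day 1 and day 3 had 0 calls in all 3 of these lists, but without day 3 replicate 2 each had 1 member higher and 0 lower at day 3. Of all 18495 probe sets, 380 were then called higher and 210 lower at day 3.

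Of 21 enzymes of the glycan antigens 19 were measured, with 2 higher and 1 lower at day 5 and a median of -0.09. B3GNT5, which builds lacto-series glycolipids, rose by 1.94 ± 0.28 (adjusted p 0.00146), and B3GNT2, which extends poly-N-acetyllactosamine chains, rose by 1.40 ± 0.28 (0.0106). CHST6, a sulfotransferase of keratan sulphate, fell by 1.56 ± 0.29 (0.00719). These 3 calls held without any 1 of the 8 samples (0.00377 to 0.038). B3GALT5, which makes the SSEA-3 glycolipid, differed by -1.34 ± 0.38 without passing (0.061), and was named after its value was seen.

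Among 27 further surface proteins of human pluripotent cells 22 were measured, with 0 higher, 6 lower and a median of -0.21 at day 5, and 0 called at day 1 or day 3. Without day 3 replicate 2 it had 1 lower at day 3, and its day 3 median turned from -0.26 to 0.23. TNFRSF8 (CD30) fell by 3.48 ± 0.71 (adjusted p 0.0115), the epithelial cadherin CDH1 fell by 1.95 ± 0.40 (0.012) and the receptor phosphatase PTPRZ1 fell by 1.86 ± 0.26 (0.00124). The calls of these 3 held without any 1 of the 8 samples (0.000845 to 0.0428), where CDH1 differed by -2.22 to -1.60. The other 3 were CDH3, ITGA6 and ERBB3 (-1.10, -1.72 and -1.54; adjusted p 0.0399, 0.0358 and 0.0437). CDH3 and ITGA6 lost their calls without 7 of the 8 samples, keeping them without day 5 replicate 4, and ERBB3 without 6, keeping its call without day 5 replicates 3 or 4. ITGA6 also lost its call in a fit of day 0 and day 5 alone (0.0813). Without day 3 replicate 2 the day 5 counts were 2 higher and 6 lower in this list, 3 and 3 among the glycan enzymes, 2 and 3 among the relatives, 2 and 1 among the partners and 1 and 1 among the anchor genes. Over all 18495 probe sets they were then 753 higher and 861 lower, against 474 and 535 with all samples.

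**Figure D4:**
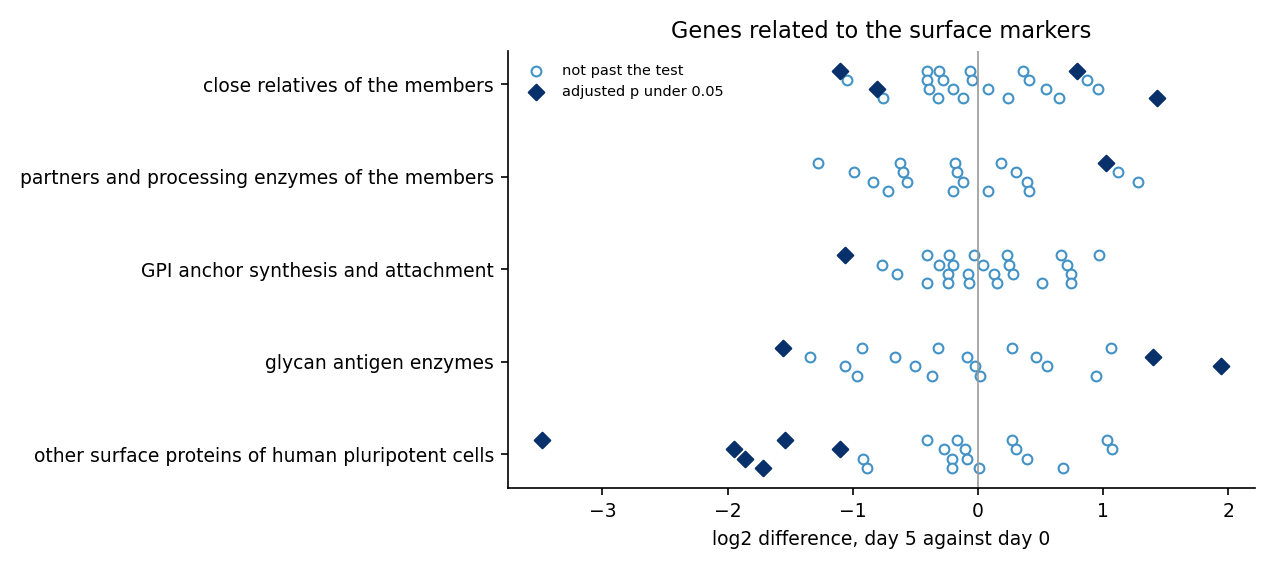
Log2 difference at day 5 against day 0 (horizontal axis) of each measured gene in 5 lists related to the surface markers; diamonds passed the test and open circles did not, and the vertical offset within a list only separates points. The 22 further surface proteins include 6 diamonds, all to the left of 0, whereas the 24 relatives include 2 on each side.

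Markers of other cell types were counted at day 5 for comparison. The log2 difference lay above 0 for 4 of 9 measured neural, 5 of 11 trophoblast and amnion and 7 of 12 endothelial and blood markers. The medians of these lists were -0.14, -0.01 and 0.22, against -0.02 over all probe sets. Among uncalled markers, the median intensity of TFAP2C went from 1065.2 at day 0 to 562.9 at day 5, and that of TEK from 125.6 to 607.9. Of 9 measured neural markers 1 was higher, PAX6 (4.34 ± 0.43, adjusted p 0.000332), and of 11 trophoblast and amnion markers 2 were higher, GATA3 (2.06 ± 0.37, 0.00611) and HAND1 (2.05 ± 0.55, 0.0486). The median intensity of PAX6 was only 20.6 at day 0 and 344.4 at day 5, and that of HAND1 29.9 and 158.3. With a pseudocount of 16 the rises were 3.6 for PAX6 and 1.65 for HAND1. HAND1 was among the dimmest 25% and absent from the fit without them. Of 12 endothelial and blood markers 0 were higher and 1 was lower, KDR (-1.23 ± 0.29, 0.0239); without day 3 replicate 2 the list had 2 higher and 1 lower, while the neural and trophoblast counts were as before. HAND1 lost its call without each sample but day 5 replicate 2 (0.0826 to 0.147), in a fit of day 0 and day 5 alone (0.0529) and with quantile normalization (0.0503), and KDR without each but day 5 replicates 3 or 4 (0.0504 to 0.0714). The part of such cells in the values of PROM1, PODXL or EPCAM was not tested.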

How the data were processed

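The members and gene lists were chosen with earlier results of these data known. The authors deposited 1 linear intensity per probe set and array, and the submitters' processing notes name the build hg18. How the authors summarised, corrected and normalized them is not given in the sources used here, and the near-equal array medians were read from the values alone. Intensities were taken to log2 after adding a pseudocount of 1, and technical arrays were averaged with avearrays. Probe sets were named through the platform annotation: 14577 carried 1 symbol, 2849 several and 1069 none, and list genes were taken only from the first kind. All probe sets entered 1 limma 3.58.1 fit in R 4.3.3 with the day group as the only term (10 residual and 3 prior degrees of freedom). Differences are limma estimates ± SE and levels are means ± SD. Named list genes are the up to 3 largest changes past the test at day 5, and per member the 3 most correlated genes. Differences within pairs of members used exact permutation over samples. The limma code was checked on simulated data. Over the 14 technical comparisons of a member on 2 arrays, the arrays differed by 0.007 to 0.291 on the log2 scale; precision is limited by the number of arrays. Alternatives tried were, for the arrays, a random sample block over all 16 or either technical array by itself; for the model, a replicate-number block, a fit restricted to the compared groups, a variance trend or array weights; and for the values, quantile scaling, centring on medians, a pseudocount of 16 or dropping the dimmest 25%. Each sample was also left out in turn; leaving out replicate 2 of days 1, 3 and 5 together was chosen after seeing the data. No member had a second probe set to try.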

Additional observations from a re-analysis of the deposited data

Results flagged for a closer look

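For the 7 members, the 4 samples of day 0 and of day 5 were searched for a sample far from the others, in 14 groups in all, and 2 had one; chance gives about 5% of groups. THY1 in day 0 replicate 1 was the lowest day 0 value, with a gap to the next of 0.871 of the range (3216 against 4077 to 4223), and stayed above all later samples. ALPL in day 5 replicate 2 was the lowest day 5 value, with a gap of 0.861 of the range (745 against 1199 to 1296).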

How the results depend on the processing

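The 3 members called at day 5 were called under each alternative normalization, filter, pseudocount and technical array and with the replicate block, which also gave 3; array weights gave 4, with EPCAM added, and leaving out 1 sample gave 1 to 3. At any time the count was 3, 2 with all 16 arrays, technical array 2, the replicate block or replicate 2 of days 1, 3 and 5 left out, 6 with array weights and 1 to 3 leaving out 1 sample. At day 3 against day 0 the count of 0 became 2 (THY1 and CD24) with array weights or with replicate 2 of days 1, 3 and 5 left out, and was 0 to 2 leaving out 1 sample. Array weights, whose estimation stopped before it converged, gave 2 members at day 1 (PODXL and ALPL, lower) and 5 at day 3 against day 1. That last count was otherwise 0, or 0 to 1 leaving out 1 sample. Day 5 against day 3 and the pairs of members gave 0 under every alternative run. For pairs the replicate block could not pass, as its smallest exact p is 0.125, and 4 against 4 allows none below 0.0286. The pair counts of 0 therefore do not show that members changed alike. Over all probe sets the day 5 count of 1009 was 3000 with array weights, 2106 with those replicates 2 left out and 549 to 1614 leaving out 1 sample. The day 1 count of 1 and the day 3 count of 5 became 46 and 590 without day 3 replicate 2, and 2543 and 2800 with array weights. Array weights also called 6302 of the 18495 probe sets at day 3 against day 1 and 8421 at any time. No call of a member reversed. Same-numbered samples did not all deviate together (r of -0.284 to 0.645 over 19 pairs), so the numbers were not taken as pairs in the main fit. Some did: between days 1, 3 and 5, replicate 2 samples correlated at 0.509 to 0.645 and replicate 3 samples at 0.365 to 0.561. The negative values involved day 0 replicate 3 or day 5 replicate 1. Differently numbered samples reached 0.516 (day 3 replicate 1 and day 5 replicate 4). With 4 sign-flipped pairs the smallest exact p is 0.125.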
